A study of Drosophila melanogaster with 8 samples.

Results

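Mitochondrial ribosomal protein genes were followed through RNA-seq libraries of Drosophila S2 cells, a line of late embryonic origin with features of macrophage-like hemocytes. The members are the gene rows whose FlyBase identifier carries a symbol beginning, in this letter case, with mRpL or mRpS. Of 73 such symbols, 70 had a row among the 15438 genes of the deposited tables, and mRpL45, mRpS34 and mRpS5 were not analysed here. By symbol, 46 belong to the large subunit (mRpL) and 24 to the small subunit (mRpS). Stable S2 lines carried pUWG vectors with a neomycin resistance gene and either wild-type or mutant Beaf, and were grown from colonies that survived G418. The labels do not describe the mutation. BEAF-32, the protein encoded by Beaf, is an insulator protein that binds near promoters. Each genotype was represented by 3 libraries. A further library came from cells given 400 µg of double-stranded RNA against CTCF, another insulator protein, for 5 days, and 1 from its control. The study asked how the RNA of these cells differs when either insulator protein is disturbed. Whether replicate libraries stem from separate cultures is not stated, so p-values measure how these libraries vary among themselves, possibly for technical reasons only. The protocols describe transfected colonies and no parental line as a further control. Genotype therefore cannot be told apart from any other difference between the lines.

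Mitochondrial ribosomes translate the few proteins encoded in mitochondrial DNA, which are core subunits of the respiratory chain and of ATP synthase. Their ribosomal RNAs, mt:lrRNA and mt:srRNA in flies, are made inside the organelle, whereas all of their proteins are encoded in the nucleus, translated in the cytosol and imported. Some of these proteins descend from bacterial ribosomal proteins, and others were added in mitochondria. In mammalian structures the relatives of mRpS18A and mRpS30 sit in the large subunit, so the grouping by symbol is a naming convention for those 2 genes.

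The Beaf libraries held 1544063 to 2122627 in deposited gene values. The CTCF control held 10963743 gene reads, recovered from rescaled values, and the knockdown 9267319. BEAF-32 RNA stood at 25.0, 469 and 676 CPM (counts scaled to a common library total) in wild-type libraries 1 to 3 and at 1228, 1613 and 1929 CPM in mutant libraries 1 to 3. Wild-type library 1 was thus below the CTCF control (58.3 CPM) for the gene that its line was labelled to carry. CTCF RNA was at 55.4 CPM without and 11.3 CPM with the double-stranded RNA. Reads outside annotated features made up 91.3% to 94.0% of wild-type and 85.6% to 87.4% of mutant libraries, and reads not aligned 0.79% to 3.55% and 7.61% to 10.4%, so neither measure overlapped between the genotypes. Summed CPM of 10 hemocyte markers ranged from 1430 to 6376 in wild-type and from 9680 to 13903 in mutant libraries, while the CTCF control held 32748 and the knockdown 24442 CPM, and 9 of the 10 rose in the mutant in the comparison of libraries 2 and 3 described below. Summed markers of neurons were at 45.1 to 54.2 CPM in wild-type and 50.5 to 178 CPM in mutant libraries, with elav at 0 throughout, and epithelial markers were at 433 to 470 and 442 to 653 CPM. Muscle markers summed to 0.94 to 7.94 and 4.24 to 40.2 CPM, and fat body markers to 0.63 to 1.06 and 0 to 9.90 CPM. The highest mutant sum of neuron, epithelial, muscle and fat body markers came from mutant library 1 each time. Mutant libraries 2 and 3 held 54.6 and 50.5 CPM of neuron and 491 and 442 CPM of epithelial markers. They held 4.24 and 5.18 CPM of muscle and 0 and 1.94 CPM of fat body markers. Gonad markers, with zpg at 0 throughout, summed to 2.36 to 11.1 and 19.4 to 29.1 CPM. Most of the mutant gonad sums was bam, at 21.0, 19.1 and 18.8 CPM in mutant libraries 1 to 3. In the comparison of libraries 2 and 3, bam and the epithelial marker crb rose in the mutant (limma's adjusted p 0.017 and 7.2e-05). The part of these differences in the results below was not tested. In bulk RNA, fewer cells of a type and less RNA per cell cannot be told apart.

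The mitochondrial ribosomal protein genes formed a band of moderate and similar levels in the Beaf lines. Per kilobase of annotated exon, means of the 6 Beaf libraries had a median of 14.7 CPM per kb over the 68 members above 0. Quartiles were 12.1 and 17.0, and the median of protein-coding genes above 0 was 4.43 CPM per kb. Among these members, large subunit and small subunit genes had medians of 14.9 and 14.3 CPM per kb. The highest was mRpL12, whose protein belongs to the stalk that contacts translation factors, with 42.8, 40.9 and 53.5 CPM per kb in wild-type libraries 1 to 3 and 23.5, 45.3 and 43.0 CPM per kb in mutant libraries 1 to 3. It was followed by mRpL28, whose mean was 36.1 CPM per kb, and by mRpS22, at 31.7 CPM per kb. The 6 values of mRpL28 ranged from 31.2 to 41.1 CPM per kb and so lay within the range of mRpL12, and the ranges of mRpL28 and mRpS22 overlapped too. The next were mRpS9, at 26.8, and mRpL22, at 26.0 CPM per kb. These 5 genes come from both subunits. In the CTCF pair mRpL12 and mRpL28 again ranked 1 and 2, at means of 62.4 and 60.7 CPM per kb.

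At the lower end, mRpL13 and mRpL53 were listed at 0 in all 8 libraries, while mRpS24 stood at 1.76 CPM per kb, mRpL21 at 5.30, mRpL41 at 6.29, mRpS6 at 6.97 and mRpS18B at 8.13 (means of the 6 Beaf libraries). Of all genes in the tables, 18.2% were at 0 in every library, and of protein-coding genes 13.12%. In the BDGP6.54 annotation, which need not be the one the authors used, exons of CG10602 cover 35.2% of the exonic bases of mRpL13, and exons of AGO1 and CG33155 together cover 100% of those of mRpL53. Another gene's exons shared over 25% of the exonic bases in 6 members, namely these 2 and mRpS14, mRpS21, mRpS24 and mRpS9. The median of the 6 was 5.91 CPM per kb, which rests in part on the 2 members at 0. Of the others, mRpS14 was at 10.1 and mRpS24 at 1.76 CPM per kb. The 28 members that share none had a median of 14.9 CPM per kb and the 36 that share up to 25% one of 14.2. Sharing did not go with a low level in each case, since mRpS9 and mRpS21 were at 26.8 and 17.6 CPM per kb. The value of a gene that shares exons is uncertain, because the strand setting of the counting is not given in the sources used here, and its part in the values of 0 was not tested.

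Levels in the wild-type Beaf libraries and in the CTCF control, made as separate tables, followed each other across members, with Spearman's rho of 0.67 between mean wild-type and control CPM per kb over the 68 members above 0, which share their gene lengths and overlaps. The summed level of the 70 members averaged 1046 ± 44.2 CPM in wild-type libraries (SD, n = 3) against 1692 CPM in the control with all gene rows as the total. Protein-coding rows made up 57.8% to 61.7% of all gene rows summed in Beaf libraries and 88.1% in the control, and with these rows as the total the sums were 1757 ± 57.3 CPM (SD, n = 3) and 1920 CPM. On that scale, the median log2 ratio of wild-type mean to control was -0.11 for members and -0.11 for protein-coding genes. The member farthest above that was mRpL48, a mitochondria-specific large subunit protein. It stood at 47.3, 36.2 and 41.1 CPM of protein-coding rows in wild-type libraries 1 to 3 and at 12.8 CPM in the CTCF control, a ratio of 3.25 (log2 1.70), which 2.30% of 6251 protein-coding genes reached. Per kb it ranked 7 of the members in the Beaf lines and 64 in the CTCF pair. Its neighbours on arm 2L showed the same pattern. CG17660, which starts 41 bp away on the other strand, averaged 267 CPM of protein-coding rows in wild-type libraries against 114 CPM in the control, and frtz, whose exons share bases with mRpL48, averaged 111 against 30.6 CPM.

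**Figure D1:**
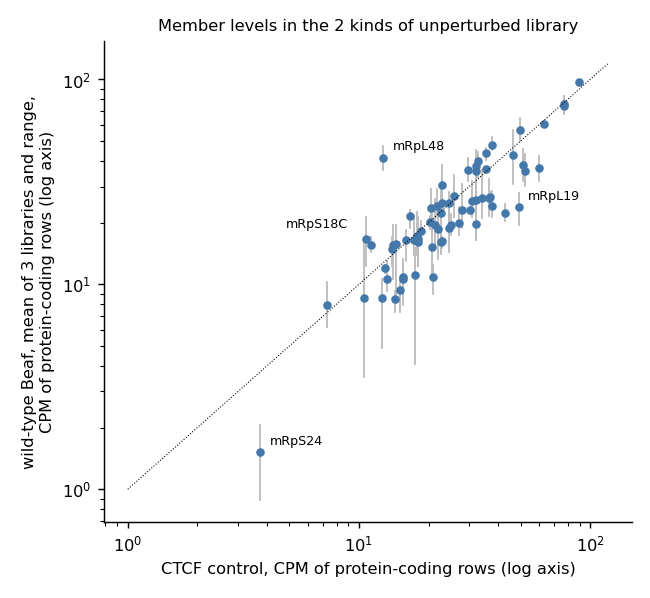
Level of each member above 0 in the CTCF control (horizontal axis) and in the wild-type Beaf lines (vertical axis, mean of 3 libraries as a point, their range as a line), in CPM of protein-coding rows on log axes; the dotted line marks equal levels. Most members lie near the line, mRpL48 lies above it at 41.5 against 12.8 CPM, and mRpS24 is the lowest at 1.52 against 3.75 CPM.

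The first comparison, mutant against wild-type Beaf, found lower summed RNA of these genes in every mutant library than in any wild-type library, in a design too small for the test used to pass a threshold of 0.05. The summed level of the 70 members was 1029, 1014 and 1097 CPM in wild-type libraries 1 to 3 and 616, 926 and 899 CPM in mutant libraries 1 to 3. The groups did not overlap, and mutant library 1 was far below the other two. Means were 1046 ± 44.2 CPM in wild-type and 814 ± 171 CPM in mutant libraries (SD, n = 3 each), a difference of -22.2% with a two-sided exact permutation p of 0.1, the smallest that 3 against 3 libraries allow. Without mutant library 1 the difference was -12.8%. Relative to the wild-type mean, mutant libraries 1, 2 and 3 stood at -41.1%, -11.5% and -14.1%.

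Both subunits were lower in the mutant libraries. The 46 large subunit genes summed to 631, 626 and 698 CPM in wild-type and 374, 591 and 579 CPM in mutant libraries, a difference of -21.0%. The 24 small subunit genes summed to 398, 388 and 399 CPM in wild-type and 243, 335 and 320 CPM in mutant libraries, a difference of -24.2%. Without mutant library 1 the differences were -10.2% for the large and -17.0% for the small subunit. The 2 exact permutation p-values were again 0.1, and neither set of groups overlapped. The ratio of the large to the small subunit sum was 1.65 ± 0.089 in wild-type and 1.70 ± 0.144 in mutant libraries (SD, n = 3 each), with an exact permutation p of 0.7. Values were 1780, 1692 and 1800 CPM in wild-type and 1058, 1500 and 1471 CPM in mutant libraries when only protein-coding rows entered the total, a difference of -23.6%. For the 28 members that share no exonic bases with another gene the difference was -18.9%, and -7.77% without mutant library 1, against -24.6% and -16.3% for the 42 members that share some.

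**Figure D2:**
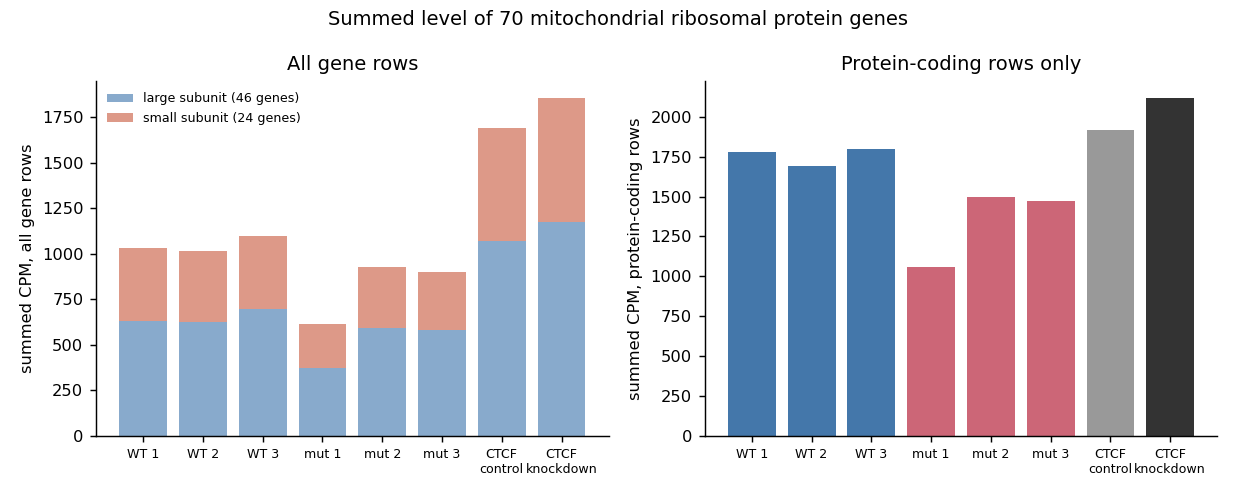
Summed CPM of the 70 members in each library, as stacked bars by subunit with all gene rows as the total (left) and as single bars with protein-coding rows as the total (right). The mutant libraries, at 616 to 926 CPM on the left, lie below the wild-type libraries, at 1014 to 1097 CPM, and on the right the wild-type libraries, at 1692 to 1800 CPM, lie nearer to the CTCF control, at 1920 CPM, while the mutant libraries stay at 1058 to 1500 CPM.

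The mitochondrial ribosomal RNAs stood on the other side. The large rRNA, mt:lrRNA, was at 4943, 8325 and 8172 CPM in wild-type libraries 1 to 3 and at 19743, 14340 and 13470 CPM in mutant libraries 1 to 3, so the groups did not overlap. Its log2 fold change was 1.23 with an adjusted p of 0.214 (limma), which misses the threshold of 0.05. The small rRNA, mt:srRNA, was at 4372, 7043 and 4381 CPM in wild-type and 11454, 8326 and 6832 CPM in mutant libraries, which overlapped. In the CTCF control mt:lrRNA was at 9699 CPM and mt:srRNA at 8.02 CPM, and in the CTCF knockdown at 16383 and 9.60 CPM. Between these single libraries the scaled log2 ratio of knockdown to control was 0.69 for mt:lrRNA, past 1.5-fold, and 0.19 for mt:srRNA. The labels' protocols mention libraries made without poly-A selection but do not say which libraries these were, and the part of library preparation in these values was not tested.

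Gene by gene, most members leaned lower in the mutant and none passed the test with all 6 libraries. Limma-trend, fitted on 6564 genes, included 64 members. The others, mRpL13, mRpL34, mRpL41, mRpL53, mRpS24 and mRpS6, were under the filter on low values. No member passed a Benjamini-Hochberg adjusted p of 0.05 in either direction (background 0.0% of genes in each direction), edgeR's quasi-likelihood test and DESeq2 called 0 members too, and the smallest adjusted p of a member was 0.214. At an unadjusted p under 0.05 limma gave 9 members lower in the mutant (background 7.3%) and 0 higher (background 12.1%). The log2 fold change was below 0 for 57 of the 64 members (89.1%), against 51.9% of all genes tested. The median log2 fold change was -0.29 over members and -0.02 over all genes, with -0.26 for large and -0.38 for small subunit genes. In TMM-scaled CPM, mutant and wild-type libraries did not overlap for 18 of the 64 (28.1%), all 18 lower in the mutant, where the background was 18.5% lower and 18.2% higher. In plain CPM, the scale of the values printed per library, they did not overlap for 13 of the 64 (20.3%), again all lower, where the background was 18.4% lower and 17.5% higher, so that the share of members lower was near that of all genes.

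These values rested unequally on the mutant libraries. Relative to the wild-type mean, the median log2 difference over the 64 members was -0.64 in mutant library 1, with 53 members below 0, -0.10 in mutant library 2, with 43 below, and -0.23 in mutant library 3, with 47 below. The wild-type libraries, which enter that mean themselves, had medians of -0.01, -0.05 and 0.02, with 33, 40 and 29 members below 0, so that mutant library 2 differed little from wild-type library 2 in this count. Over all genes tested, these medians were -0.0010, -0.0088 and -0.012 in mutant libraries 1 to 3, and at most 51.3% were below 0. Leaving out mutant library 1 brought the median of members to -0.16 with all remaining libraries. Median reads per member above 0 ranged from 10.5 in mutant library 1 to 21.5 in mutant library 2, and the 95% interval of a member's log2 fold change had a median half-width of 0.72. Fold changes under that size could therefore not be resolved for a typical member. Between mutant libraries 2 and 3, reads of the members scaled to their totals differed with a chi-square per degree of freedom of 1.02, close to counting error alone, and wild-type libraries 1 and 2 with one of 1.07. Mutant library 1 gave 1.95 and 2.02 against mutant libraries 2 and 3. Over all genes the same pairs gave 2.19, 10.0, 33.2 and 30.4. At a given relative difference this measure grows with reads, so it does not rank members against all genes in steadiness.

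**Figure D3:**
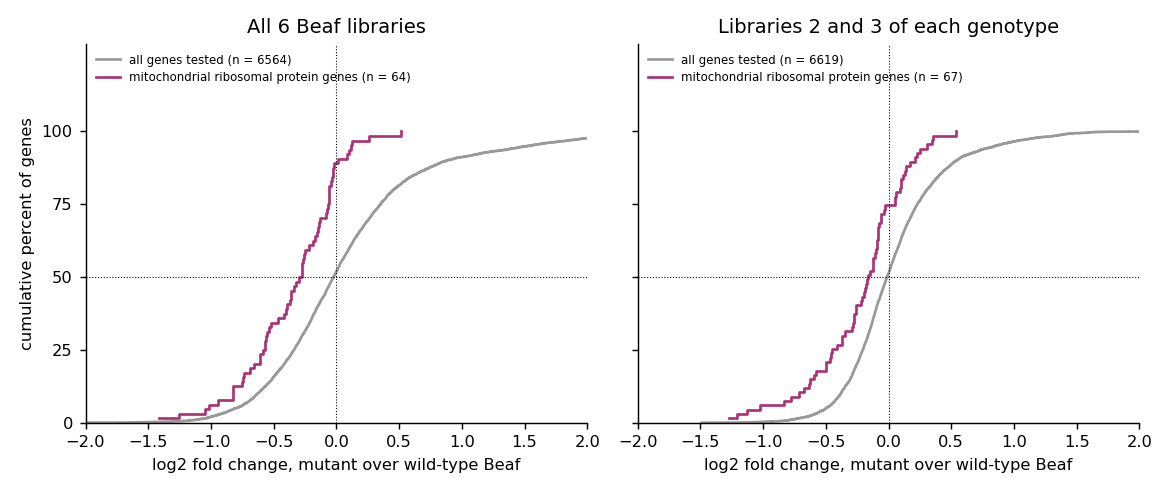
Cumulative percent of genes by log2 fold change of mutant over wild-type Beaf (horizontal axis, shown from -2 to 2), for members (purple) and all genes tested (grey), with all 6 libraries (left) and with libraries 2 and 3 of each genotype (right). The purple curve crosses 50% at -0.29 on the left and at -0.17 on the right, where the grey curve crosses at -0.02 and -0.01.

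Of the 6 lowest log2 fold changes with all 6 libraries, only that of mRpL48 came from the large subunit. Large subunit genes were next in order, at -0.82, close to the last of these 6 at -0.83. The lowest was mRpS18C, the relative of a bacterial protein that binds the platform of the small subunit. It was at 7.07, 12.7 and 10.0 CPM in wild-type and 1.24, 7.42 and 1.94 CPM in mutant libraries 1 to 3. In plain CPM its groups overlapped, since mutant library 2 was above wild-type library 1, whereas in TMM-scaled CPM they did not, and the log2 fold change was -1.42 (SE 0.52, limma's adjusted p 0.23). The mitochondria-specific mRpS33 was at 7.07, 12.7 and 10.0 CPM in wild-type and 1.86, 2.12 and 7.77 CPM in mutant libraries, with a log2 fold change of -1.25 (SE 0.48). Here mutant library 3 stood within the wild-type range.

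Non-overlapping groups were seen on both scales for the next 4. mRpS16 was at 19.8, 12.7 and 15.7 CPM in wild-type and 4.33, 8.48 and 8.42 CPM in mutant libraries (log2 fold change -1.05, SE 0.30), and mRpS21 at 10.8, 13.2 and 10.7 CPM in wild-type and 3.09, 5.30 and 7.12 CPM in mutant libraries (-1.01, SE 0.31). Both descend from bacterial small subunit proteins. mRpL48 was at 27.3, 21.7 and 25.1 CPM in wild-type and 5.57, 17.5 and 16.2 CPM in mutant libraries (-0.94, SE 0.36), where mutant library 1 stood alone at the bottom. mRpS29, the fly relative of the mammalian GTP-binding protein DAP3, was the steadiest, at 30.2, 28.0 and 27.6 CPM in wild-type and 13.6, 19.1 and 13.0 CPM in mutant libraries. Its log2 fold change was -0.83 (SE 0.21) with an unadjusted p of 0.0049 and an adjusted p of 0.214 (limma).

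On the higher side values were small. The largest log2 fold change was that of mRpS11, 0.52 (SE 0.35), with 4.24, 6.35 and 6.27 CPM in wild-type and 10.5, 8.48 and 5.83 CPM in mutant libraries, where mutant library 3 lay within the wild-type range. It was followed by mRpL19 at 0.26, mRpL55 at 0.13, mRpL9 at 0.11, mRpS31 at 0.10 and mRpL33 at 0.09, all with adjusted p-values above the threshold (limma). Of these, mRpL33, mRpL9 and mRpS31 were below 0 in some other settings.

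Since library 1 of each genotype stood apart in earlier results of these data, libraries 2 and 3 of each genotype were also compared. In that fit of 6619 genes, with 67 members, limma called 3 members lower in the mutant (4.5%, background 5.39%) and 0 higher (background 9.34%). The share of members called was thus near that of all genes. The log2 fold change was below 0 for 50 of the 67 (74.6%), against 51.4% of all genes, and its median was -0.17 over members and -0.01 over all genes. In TMM-scaled CPM, groups did not overlap for 27 members lower in the mutant (40.3%, background 27.7%) and for 7 higher (10.4%, background 27.3%). By subunit, 30 of 44 large and 20 of 23 small subunit genes were below 0. The summed CPM differed by -13.5% between these libraries.

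The 3 members called were mRpS29, mRpL40 and mRpS18C. mRpS29 (FBgn0034727, arm 2R, 22418937 to 22420376 on the minus strand of BDGP6.54) fell from 27.8 ± 0.33 CPM to 16.0 ± 4.34 CPM (SD, n = 2 each). The log2 difference was -0.78 (SE 0.24) at an adjusted p of 0.035 (limma). Behind it stood 43 reads in wild-type library 2, a deposited value of 44 in wild-type library 3, and 36 and 20 reads in mutant libraries 2 and 3. Mutant library 1, which took no part in that fit, had 22 reads and 13.6 CPM, below every wild-type library.

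mRpL40 (FBgn0037892, arm 3R, 11407918 to 11408756 on the plus strand), a mitochondria-specific large subunit protein, fell from 10.6 and 11.3 CPM in wild-type libraries 2 and 3 to 5.83 and 3.24 CPM in mutant libraries 2 and 3, a log2 difference of -1.13 (SE 0.36) at an adjusted p of 0.038 (limma). Library 1 of each genotype did not repeat that order, with 7.54 CPM in the wild-type and 9.28 CPM in the mutant library. In all 6 libraries its log2 fold change was -0.61 (SE 0.42, limma's adjusted p 0.39). The mutant libraries 2 and 3 held 11 and 5 of its reads.

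mRpS18C (FBgn0039765, arm 3R, 30423974 to 30424556 on the plus strand) fell by 1.27 on the log2 scale (SE 0.42) with an adjusted p of 0.046 (limma), on 14 and 3 reads in mutant libraries 2 and 3. Each of these 3 calls was lost under some settings. DESeq2 on recovered reads called 0 of them, with an adjusted p of 0.479 for mRpS29 and none given for mRpL40 and mRpS18C, and edgeR called mRpS29, mRpL40 and mRpS33. Leaving out mutant library 3 took the adjusted p to 0.27 for mRpS29, 0.33 for mRpL40 and 0.53 for mRpS18C, and the log2 fold change of mRpS18C to -0.55. Leaving out wild-type library 2 gave 0.081 for mRpS29, 0.13 for mRpL40 and 0.18 for mRpS18C. Leaving out wild-type library 3 gave 0.062 for mRpS29 and 0.14 for mRpL40.

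Below the threshold in libraries 2 and 3, mRpS33 had a log2 fold change of -1.20 (SE 0.42, limma's adjusted p 0.058), mRpL41 one of -1.03 (SE 0.39, 0.089) and mRpS21 one of -0.84 (SE 0.33, 0.099). mRpL41 was at 6.35 and 6.27 CPM in wild-type and 3.18 and 1.94 CPM in mutant libraries 2 and 3, while library 1 held 2.83 CPM in the wild-type and 1.86 CPM in the mutant. The value of mRpL41 in wild-type library 1 thus lay within the mutant range. The highest log2 fold changes were 0.53 for mRpL33, 0.35 for mRpL27 and mRpL47, 0.31 for mRpL24, 0.25 for mRpL34 and 0.22 for mRpL55. All 6 of these belong to the large subunit by symbol, and none passed the test.

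**Figure D4:**
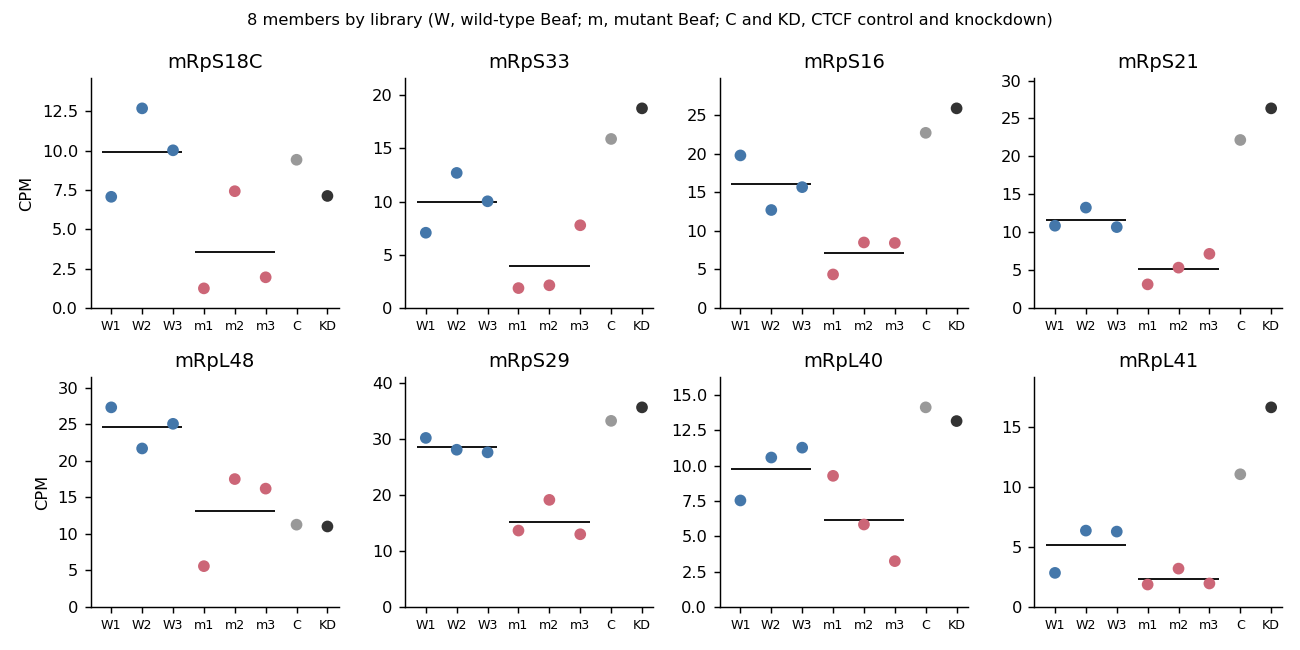
CPM of 8 members in each of the 8 libraries, with horizontal lines for the means of the 3 wild-type and the 3 mutant Beaf libraries and vertical axes that start at 0. Wild-type and mutant libraries do not overlap for mRpS16, mRpS21, mRpL48 and mRpS29, whereas mutant library 1 of mRpL40 (9.28 CPM) stands among the wild-type libraries.

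In their place in the genome the members are crowded. They lie on arms 2L (12), 2R (12), 3L (15) and 3R (20) and on the X chromosome (11). A gene on the other strand starts within 1000 bp upstream, in a head-to-head arrangement, for 56 of the 70 (80.0%), against 34.0% of protein-coding rows. Exons of another gene share bases with 42 members (60.0%), against 34.1% of protein-coding rows. With all 6 Beaf libraries, the median log2 fold change was -0.31 for the 52 tested head-to-head members and -0.21 for the 12 others, against -0.09 for all head-to-head protein-coding genes and 0.04 for those without such a neighbour. In libraries 2 and 3 these medians were -0.12 and -0.18 for members and -0.06 and 0.03 for protein-coding genes. The 2 comparisons thus did not order the head-to-head and the other members in the same way.

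Where both genes of a head-to-head pair were tested with all 6 libraries, in 42 pairs, the member was below 0 in 38 and its partner in 28, and the medians were -0.31 for members and -0.18 for partners. The partner of mRpS18C, CG15535 (45 bp away), had a log2 fold change of -0.77 in libraries 2 and 3 (SE 0.31, limma's adjusted p 0.11), and the partner of mRpL48, CG17660, one of -0.25 (SE 0.09, limma's adjusted p 0.077). The gene sharing exons with mRpL48, frtz, had one of -0.45 in that fit (limma's adjusted p 0.10). For mRpS29 the partner is rad50, a DNA repair gene 637 bp away, with a log2 fold change of 0.17 in libraries 2 and 3 and -0.03 with all 6, and the gene sharing its exons, qkr58E-2, had -0.02 and 0.18. The partners of mRpS16 and mRpS21, cg and Droj2, had log2 fold changes of 0.15 and 0.04 in libraries 2 and 3 and of 0.16 and 0.15 with all 6. ReepB, which shares exons with mRpS16, had -0.35 in libraries 2 and 3 (limma's adjusted p 0.098) and -0.71 with all 6.

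The second comparison set 1 CTCF knockdown library against 1 control, without replicates and so without a test of the condition. Members differed little. All 68 members above 0 had at least 50 reads in the pair together, and none reached a ratio of 1.5 in either direction, where 2.59% of 7098 genes were that much higher and 1.35% that much lower in the knockdown. The log2 ratio was above 0 for 46 of the 68 (67.6%), against 47.4% of genes, with a median of 0.08 over members and -0.01 over all genes. It was above 0 for 29 of 44 large and 17 of 24 small subunit genes. The 95% counting interval, which covers counting error only, lay wholly above equal levels for 9 members (background 13.4%) and wholly below for 2 (background 19.5%). Reads of all members summed to 18544 in the control and 17201 in the knockdown, a scaled ratio of 1.05 (counting interval 1.03 to 1.07).

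The highest ratio was that of mRpL41, with 121 reads in the control and 154 in the knockdown, a log2 ratio of 0.53 (counting interval 0.17 to 0.88). mRpS18A followed with 221 and 277 reads (0.50, interval 0.24 to 0.77), then mRpL27 at 0.49, mRpS28 at 0.41, mRpL24 at 0.39 and mRpL42 at 0.37. Median reads per member above 0 were 221.5 in the control and 222 in the knockdown, far above those of the Beaf libraries.

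The lowest was mRpS18C, with 103 reads in the control and 66 in the knockdown, a log2 ratio of -0.46 whose counting interval, -0.93 to -0.004, ended just under 0. mRpL17 had 236 and 164 reads (-0.35, interval -0.64 to -0.05). The intervals of mRpL50 (-0.28), mRpL43 (-0.27), mRpS2 (-0.26) and mRpL2 (-0.20) included 0. mRpS18C was also the lowest member in both fits of the Beaf lines, which share libraries 2 and 3 with each other. mRpL41, among the lowest members in Beaf libraries 2 and 3, was the highest here. mRpS24, nearly absent from the Beaf libraries, held 36 and 41 reads.

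**Figure D5:**
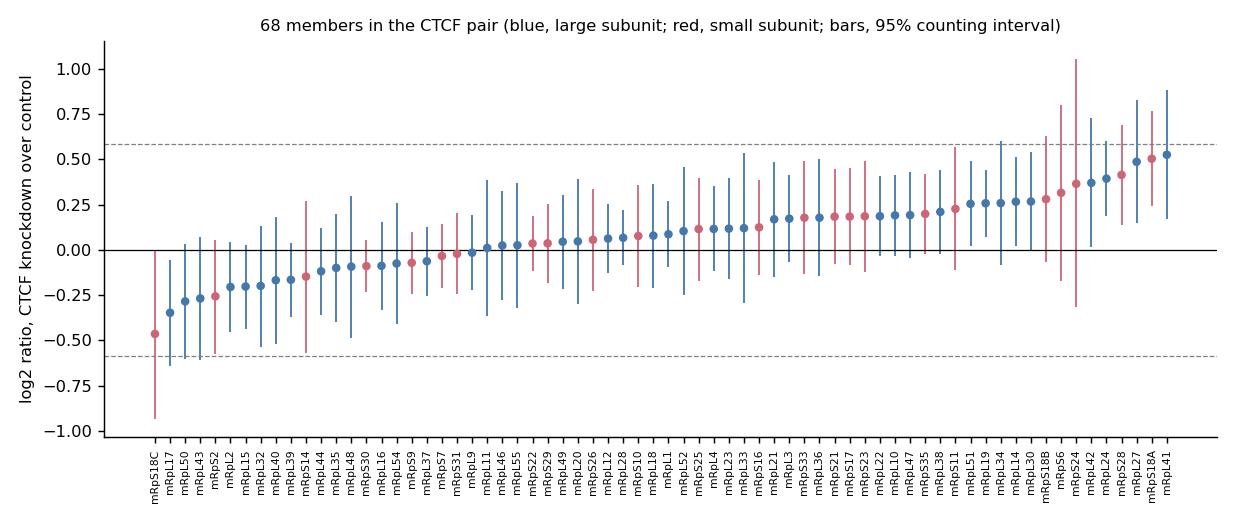
Log2 ratio of CTCF knockdown to control for the 68 members, ordered from lowest to highest, with 95% counting intervals as bars; blue marks the large and red the small subunit by symbol, and dashed lines mark 1.5-fold. All points lie between the dashed lines, from -0.46 for mRpS18C to 0.53 for mRpL41, and 46 lie above 0.

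Other genes of mitochondrial translation were set beside the members, from lists chosen with earlier results known. Mitochondrial ribosomal proteins with other names were represented by tko, the relative of bacterial S12, bonsai, the relative of bacterial S15, and CRIF, a protein of the large subunit. Their log2 fold changes with all 6 libraries were -0.02, -0.43 and 0.41, and none passed the test in either Beaf fit (limma's smallest adjusted p in libraries 2 and 3 was 0.15, for CRIF). CRIF was at 15.1, 17.5 and 15.0 CPM in wild-type and 14.9, 20.7 and 28.5 CPM in mutant libraries, so that it overlapped between genotypes and did not share the lean of the members. With all 6 libraries limma called none of the genes in these lists.

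In libraries 2 and 3, where 5.39% of all genes tested were called lower and 9.34% higher, 0 of 5 tested mitochondrial translation factors passed the test, of 10 matched, with mEFTu1, mRRF1 and waw at 0 in every library. Of the aminoacyl-tRNA synthetases and related enzymes, 17 of 20 matched were tested and 1 fell, GlyRS, which charges glycine tRNA in both the cytosol and mitochondria (log2 fold change -0.42, SE 0.10, limma's adjusted p 0.0081). Of 13 tested genes of mitochondrial DNA expression and maintenance, 1 fell, scu, a subunit of the mitochondrial RNase P that cuts tRNAs from transcripts (-0.56, SE 0.14, limma's adjusted p 0.0093). It was at 85.3, 77.8 and 66.4 CPM in wild-type and 23.5, 49.3 and 47.9 CPM in mutant libraries, which did not overlap. With 1 gene called in each, these 2 lists were near the background. Of 7 nuclear regulators, Dref, which encodes a promoter-binding factor of growth and replication genes, fell (-0.41, SE 0.13, limma's adjusted p 0.045), and Myc, a driver of ribosome production, rose (0.30, SE 0.08, limma's adjusted p 0.017). Dref was at 97.5, 96.8 and 101 CPM in wild-type and 26.0, 63.1 and 87.4 CPM in mutant libraries, the lowest being mutant library 1, as for the members' sum. With all 6 libraries, the median log2 fold change was -0.25 over the 17 tested synthetases and related enzymes, against -0.29 over members. It was -0.003 for the 5 tested translation factors, which spread from -0.69 for mEFG1 to 0.84 for mRF1. For the 12 tested genes of the DNA expression and maintenance list it was -0.05, and for the 7 nuclear regulators 0.06. Summed CPM of the 20 synthetases and related enzymes matched was 662 to 698 in wild-type and 497 to 626 in mutant libraries, without overlap. Much of that difference came from GlyRS, at 146, 140 and 129 CPM in wild-type and 48.9, 105 and 95.9 CPM in mutant libraries. AspRS-m added to it, at 105, 103 and 110 against 72.4, 89.1 and 82.3 CPM. Over the 17 tested, the median log2 fold change in libraries 2 and 3 was -0.08, with 10 below 0. In the CTCF pair none of the genes with at least 50 reads in these 5 lists reached 1.5-fold in either direction.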

How the data were processed

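RNA-seq of 8 libraries was analysed from 4 deposited tables. Mutant and knockdown columns hold read counts per gene as deposited by the authors. Wild-type and control columns hold a signal as deposited. In wild-type libraries 1 and 2 and the control, 99.989%, 100% and 99.99% of positive values equalled a whole number of reads times 1.2339, 1.2372 and 1.2968, rounded to a whole number with a tolerance of 0 (by chance 81.0%, 80.8% and 77.1%). No such factor was recovered for wild-type library 3, which was used as deposited. The submitters' processing notes name HTSeq, BWA and CASAVA 1.8. For the build, the annotation and the strand setting, nothing is given in the sources used here. Libraries carry the number of their deposited table.

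CPM was taken over gene rows, without the last 5 rows of unassigned reads, of which ambiguous reads were 0.144% to 0.216% of all reads in the Beaf libraries, 3.27% in the control and 2.16% in the knockdown. Of 15438 identifiers, 14606 (94.6%) matched a symbol. Limma-trend 3.58.1 (R 4.3.3) was fitted to log2 CPM with TMM factors, filterByExpr and a prior count of 2, two-sided, with Benjamini-Hochberg adjustment over all genes tested. EdgeR 4.0.16 and DESeq2 1.42.0 were run on recovered reads as alternatives. The scripts were tested on simulated data. CTCF ratios used TMM-scaled recovered reads and exact 95% counting intervals. Reads carry no molecular identifiers, so intervals cover counting error only. Sums used Python 3.11.15 with scipy 1.17.1, numpy 2.4.6 and pandas 2.3.3, and figures matplotlib 3.10.9.

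Members, lists, tests and the fit of libraries 2 and 3 were chosen with earlier results of these data known. Named members were those called in either Beaf fit, the 6 highest and 6 lowest log2 fold changes of each fit and of the CTCF pair, the 5 highest and 5 lowest per kb, and those at 0. CG17660, frtz, the head-to-head partners and the mitochondrial rRNAs were chosen after values were seen, as were the overlap counts in plain CPM, the limma fit on recovered reads, the TMM-scaled sums and leaving out libraries from the sums. Of list entries, mEFG2, PheRS-m, ThrRS-m, bsf, para, Mhc, vas, nos and Ecad had no match. Promoter and protein sequences were not used here.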

Additional observations from a re-analysis of the deposited data

How the results depend on the processing

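With all 6 Beaf libraries, the count of members called stayed at 0 under other tools, scalings, filters and prior counts, and was 0 to 1 when a library was left out, the 1 being mRpS29 without mutant library 1 (log2 fold change -0.84, adjusted p 0.049), and the median of members ranged from -0.42 to -0.16. In libraries 2 and 3, DESeq2 called 0 members lower and the fit without a filter 1. The count ranged from 1 to 3 when a library was left out, where a lone library is assumed to vary like the other group. The median was -0.18 without a filter, -0.14 with a prior count of 5, and -0.23 to -0.0898 when a library was left out. The summed CPM differed by -27.6% to -12.8% when a library was left out and by -20.7% with TMM scaling. In the CTCF pair, plain CPM gave 1 member past 1.5-fold and a median of 0.15, with a median of 0.05 over all genes. Values that changed sign were those of mRpL33 with all 6 libraries (-0.05, -0.28, -0.08 and -0.33 without wild-type library 1, wild-type library 2, mutant library 2 and mutant library 3, and up to 0.67 otherwise) and in libraries 2 and 3 (-0.34 without wild-type library 2, up to 1.41 otherwise), and without a filter mRpL9 (-0.0177) and mRpS31 (-0.0328). The cause was not tested. With the deposited table as replicate block, 4 members were called in libraries 2 and 3, mRpS33 being added (adjusted p 0.013), and 0 with all 6. Same-table deviations from the genotype means correlated at -0.16, -0.12 and -0.08, and those across tables at -0.12 to 0.14. With 3 libraries per genotype, each set centred on its own mean, these values cannot decide whether libraries of a table share a batch. The description of promoter motifs was not run. Median reads per member above 0 were 10.5 to 21.5 in the Beaf libraries with recovered or deposited reads. The part of depth in the lack of calls was not tested.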
